A study of Mus musculus with 6 samples.

Results

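The cells described here are club cells of the mouse bronchioles, taken as 480 cell barcodes out of 33798 kept barcodes (88578 in all). Club cells are the secretory cells that line the conducting airways. They release secretoglobins and other host defence proteins onto the airway surface, metabolise inhaled chemicals with cytochrome P450 and other enzymes, and can give rise to ciliated cells and new club cells. They are not the alveolar type 2 epithelial cells (AEC2s), which make surfactant in the alveoli.

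Lung cells lacking CD45 were enriched with magnetic beads and profiled by 10x 3′ single-cell RNA sequencing. The mice were of C57BL/6 background, were 10 to 12 weeks old and had received tamoxifen in 4 doses, ending 2 weeks before. Littermate controls gave 4 libraries, and mice labelled as Zip8 knockout gave 2, with SFTPC-CreER, Rosa26-tdTomato and floxed *Slc39a8* alleles (Zip8AEC2). The Cre is driven by the promoter of *Sftpc*, an AEC2 gene, so club cells are not its intended target. The alleles of the control mice and the number of mice per library are not given for these libraries, so the p-values measure the spread between libraries, which may be technical. Controls 1 to 4 held 105774150, 114018446, 118771907 and 93852253 unique molecular identifiers (UMIs), and Zip8AEC2 libraries 1 and 2 held 107957330 and 103337822.

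A barcode was kept with at least 1000 genes, at least 2000 UMIs and under 15% mitochondrial UMIs, and if no other library held the same barcode with at least 5 times its UMIs. A club cell was a kept barcode with at least 3 UMIs each of *Cyp2f2*, *Cbr2* and *Hp*, under 3 of the goblet cell mucin *Muc5b*, and 0 of *Foxj1* (ciliated cells), *Lamp3* (AEC2s), *Ptprc* (leukocytes), *Cdh5* (endothelium) and *Col1a2* (fibroblasts). The members were thus chosen by their UMIs of these 9 genes. This gave 62, 53, 93 and 135 club cells in controls 1 to 4 and 90 and 47 in the Zip8AEC2 libraries. Their median depths were 31758, 16778, 44827 and 17454 UMIs in the controls and 42138 and 46040 in the Zip8AEC2 libraries. Control 4 held the most club cells and, with control 2, the shallowest ones.

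The gate is narrow. The 3 required genes alone were met by 9203 kept barcodes, of which 6050 held a *Lamp3* UMI, 3331 a *Foxj1* UMI, 3076 a *Col1a2* UMI and 1065 at least 3 UMIs of *Muc5b*, and 1 barcode could be left out for several of these. Of the 3151 kept barcodes in which *Scgb1a1* made up at least 30% of UMIs, 432 were members, from 8.47% of those in Zip8AEC2 library 2 to 32.9% of those in control 4. The median depth of these *Scgb1a1*-rich barcodes was 30660 to 67021 UMIs in the 6 libraries, above that of the members in each. At the threshold, 8 members had exactly 3 UMIs of *Hp*, and 15 barcodes missed the gate only by having 2. For *Cyp2f2* and *Cbr2* there were 0 members at 3 UMIs and 1 barcode each left out at 2. Among the members, 78 held 1 or 2 UMIs of *Muc5b*.

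Cell barcodes were shared between libraries. Of the 480 members, 304 (63.3%) carried a barcode that another library also held. In 300 of them the other copy had under 1/5 of the UMIs, in 4 it had at least that, in 0 was it the larger copy, and no barcode was a member in more than 1 library. Leaving out every shared barcode kept 15, 29, 28 and 83 club cells in the controls and 13 and 8 in the Zip8AEC2 libraries, too few in the latter for a comparison of genes.

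The label was checked against *Scgb1a1*, the gene of the main club cell secretoglobin, which the gate did not use. *Scgb1a1* alone made up 57.6%, 53.1%, 57.5% and 60.2% of all club cell UMIs in controls 1 to 4 and 59.2% and 59.6% in the Zip8AEC2 libraries. The groups overlapped. The median club cell held it at 48.5% to 61.7% of UMIs in the 6 libraries, against 0.498% to 0.967% in the other kept barcodes. Single members ran from 0.492% to 82.3%, as the plot of *Scgb1a1* by cell shows.

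**Figure D1:**
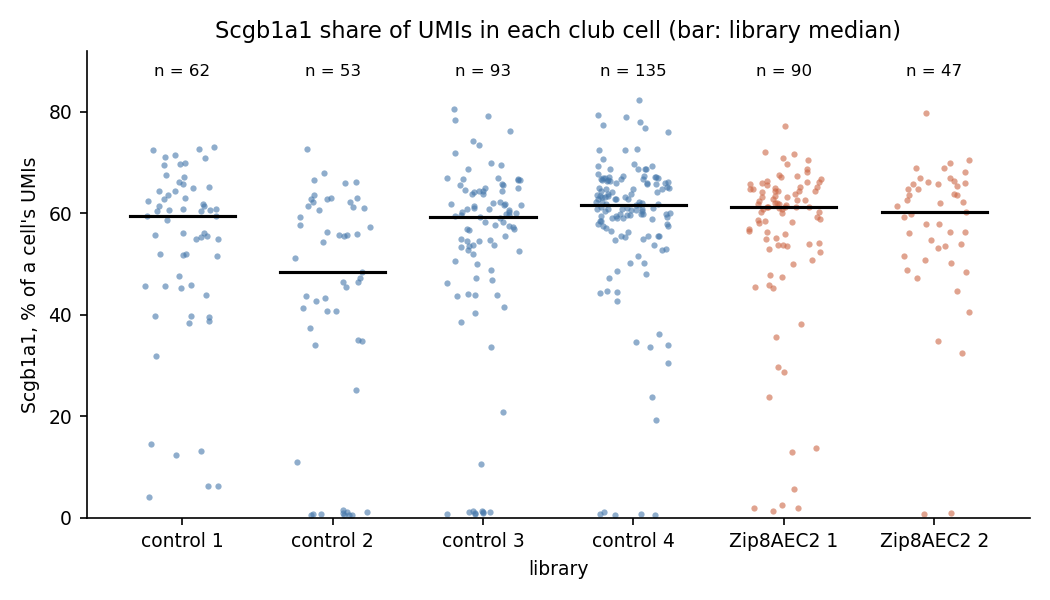
Share of each club cell's UMIs that were *Scgb1a1* (y axis, %) in the 6 libraries (x axis), with 1 point per cell, a bar at the library median and the number of cells above. Most cells lie near the medians of 48.5% to 61.7%, and a separate set lies under 10%, with most of its cells in controls 2 and 3.

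The label failed for 34 members that held under 10% *Scgb1a1*, and another 14 held 10% to 30%. The 34 had a median of 11654 UMIs, against 32736 in the other 446 members, and a similar median number of genes (3366 and 3398). Of the 34, 23 held UMIs of *Krt5*, *Krt15* or *Trp63*, genes of basal cells, the stem cells of the larger airways. *Trp63*, the basal cell transcription factor, was found in 19 of the 34 and in 1 of the other 446. *Krt17* was found in 20 and 1, *Krt5* in 16 and 2, *Dapl1* in 22 and 1, and the water channel gene *Aqp3* in 23 and 3. *Krt14*, another basal keratin, was at 0 in all members. A further 7 of the 34 held at least 3 UMIs each of the ciliated cell genes *Tppp3* and *Tmem212*, and 4 held neither set. The 23 with basal transcripts came from control 1 (2 cells), control 2 (8), control 3 (9), control 4 (3) and Zip8AEC2 library 2 (1). The 2 of control 1 held *Krt15* but 0 UMIs of *Krt5*, *Trp63* and *Krt17*. They also held 5748 and 8803 UMIs of *Bpifa1*, the gene of a secreted airway protein. These 34 barcodes passed the gate as club cells and are not described as such by their own leading gene. They were found after the data were seen, and results without them are given below.

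**Figure D2:**
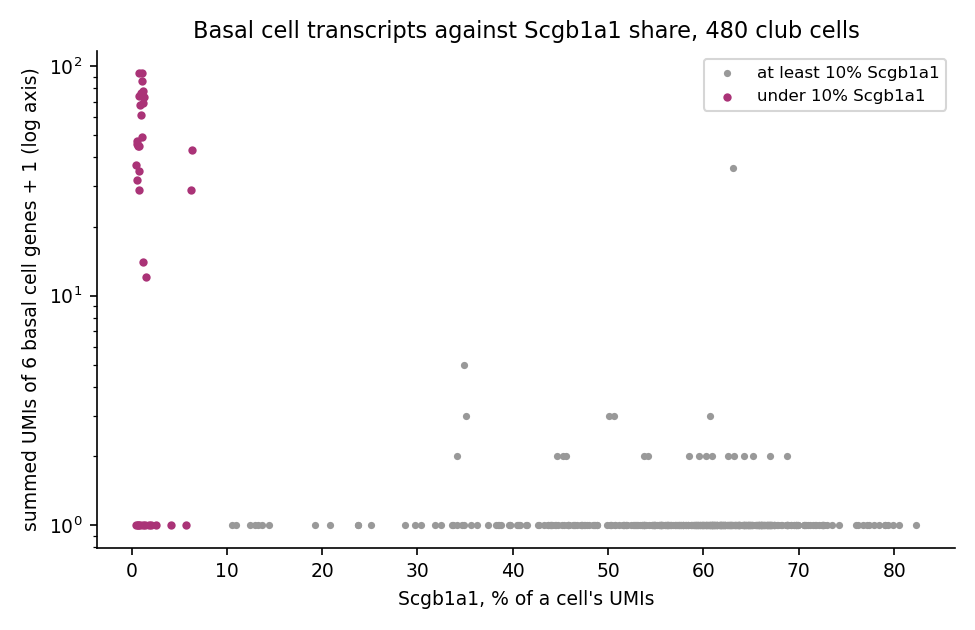
Summed UMIs of the basal cell genes *Krt5*, *Krt15*, *Trp63*, *Krt17*, *Dapl1* and *Aqp3* plus 1 (y axis, log scale) against the *Scgb1a1* share of UMIs (x axis, %) in 480 club cells. Of the 34 cells under 10% *Scgb1a1*, 23 held 11 to 92 such UMIs, while 22 of the other 446 members held any, at most 35.

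Levels below are CPM, that is, UMIs summed over the club cells of a library and scaled to a common total after TMM normalisation, and n counts libraries. Levels of different genes are 3′ end counts, which do not grow with transcript length. The genes the gate required were close between libraries. *Cyp2f2*, a cytochrome P450 that activates naphthalene (chr7:27119909-27133660 of mm10, plus strand), was at 7806, 6705, 7806 and 7068 CPM in the controls and 6489 and 8119 in the Zip8AEC2 libraries. *Cbr2*, carbonyl reductase 2 (chr11:120729489-120732114, minus strand), was at 7506, 6794, 7833 and 7430 CPM and at 6611 and 6827. *Hp*, the gene of the haemoglobin-binding protein haptoglobin (chr8:109575128-109579172, minus strand), was at 5811, 4663, 5317 and 5936 CPM and at 5021 and 6347. *Scgb1a1* (chr19:9083636-9087958, minus strand) was at 586837, 457459, 562352 and 660855 CPM and at 613758 and 633501. Its lowest level was in control 2, where 10 of 53 members held under 10% *Scgb1a1*, the most of any library. Because the gate chose cells by *Cyp2f2*, *Cbr2* and *Hp*, their levels are a description.

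The promoters of the gate genes *Cyp2f2* and *Cbr2* are shown because the gate rests on both genes, with the part of each RefSeq window (250 bases before to 50 after the start site, GRCm38.p6) that lies before the gene's annotated start. Capitals mark matches to binding motifs of airway factors, namely TGTTTAC and TGTTTGC (Foxa), CAAGTG (Nkx2-1) and TTGCNNAA (C/EBP), searched on both strands. *Cyp2f2* is read at chr7:27119705-27119908 on the plus strand and *Cbr2* at chr11:120732115-120732271 on the minus strand, both 5′ to 3′.
Cyp2f2: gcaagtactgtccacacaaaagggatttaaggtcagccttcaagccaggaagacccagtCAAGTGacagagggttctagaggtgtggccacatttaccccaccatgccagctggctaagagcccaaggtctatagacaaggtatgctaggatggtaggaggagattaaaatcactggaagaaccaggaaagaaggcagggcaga
Cbr2: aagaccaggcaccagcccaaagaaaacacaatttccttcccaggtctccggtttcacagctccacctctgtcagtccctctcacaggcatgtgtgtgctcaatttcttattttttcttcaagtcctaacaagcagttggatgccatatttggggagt
*Cyp2f2* had 1 match, CAAGTG at 191 bases before the start site, and the *Cbr2* window had 0. Over 32851 RefSeq windows of the same length, CAAGTG was found in 13.6%, TTGCNNAA in 10.8%, TGTTTGC in 5.07% and TGTTTAC in 3.65%, so a single match is common.

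After *Scgb1a1*, the club cell transcriptome was led by *Cyp2f2* and by *Scgb3a2*, a second secretoglobin. *Scgb3a2* was at 8620, 5244, 4521 and 7954 CPM in the controls and 7556 and 9402 in the Zip8AEC2 libraries. The 20 most abundant genes held 63.6% to 69.8% of UMIs, most of that being *Scgb1a1*. Besides *Cbr2* and *Hp* they included 8 mitochondrial transcripts, the nuclear RNA *Malat1* at 6582 ± 525 CPM (SD, n = 6), *Gm42418* at 4996 ± 1290 (SD, n = 6), a locus that overlaps ribosomal RNA, and *Wfdc2*, a secreted protease inhibitor, at 3769 ± 262 (SD, n = 6). The iron storage genes *Fth1* and *Ftl1* were at 3353 ± 524 and 2978 ± 418 CPM (SD, n = 6), and *Tmsb4x* and *Tpt1* at 3205 ± 174 and 3060 ± 242 (SD, n = 6). Mitochondrial transcripts made up 3.90% to 5.16% of UMIs and ribosomal protein genes 6.26% to 7.22%.

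Club cells were set beside 5 other gated types of the same libraries, with no test, since the gates chose them by their transcripts. The types were 1426 ciliated cells, 6418 AEC2s, 166 *Muc5b*-positive secretory cells, 1009 endothelial cells and 10613 fibroblasts. *Scgb1a1* made up 50.2% ± 2.91 (SD, n = 6) of UMIs in the *Muc5b*-positive cells, 12.4% ± 7.48 in ciliated cells, and 0.799% ± 0.183, 0.911% ± 0.167 and 0.761% ± 0.203 in AEC2s, endothelial cells and fibroblasts. The last 2 types should lack it, and whether their share came from free RNA or from mixed barcodes was not tested. In ciliated cells the share ran from 3.68% in control 2 to 24.6% in Zip8AEC2 library 1, with controls at 3.68% to 12.1% and the Zip8AEC2 libraries at 24.6% and 17.0%.

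The genes with the highest ratio of their club cell level to their level in ciliated cells, AEC2s, endothelial cells or fibroblasts, whichever was highest, were *Bpifa1*, *Pon1*, *Cldn10*, *Scgb1a1*, *Scnn1b*, *Scgb3a2*, *Gabrp*, *Hp*, *Retnla* and *Pigr*, at 11.9-fold to 2.83-fold. *Bpifa1* led through 2 cells of control 1 with 6.33% and 6.22% *Scgb1a1*, and among members with at least 30% *Scgb1a1* it was at 6.64 to 186 CPM. *Pon1*, paraoxonase 1, was at 297 ± 55.0 CPM in club cells and 51.0 in ciliated cells. *Cldn10*, a claudin of the tight junction, was at 275 ± 28.7 and 60.0 CPM (SD, n = 6). *Scnn1b*, a subunit of the epithelial sodium channel, was at 147 ± 15.4 and 34.2 CPM, and *Gabrp*, a GABA receptor subunit, at 144 ± 19.7 and 36.8 CPM. *Pigr*, the receptor that carries IgA across the epithelium, was at 150 ± 34.6 and 52.9 CPM. None of these separated club cells from *Muc5b*-positive cells, which held *Pon1* at 349, *Cldn10* at 198, *Scnn1b* at 113, *Gabrp* at 241 and *Pigr* at 425 CPM. The *Muc5b*-positive cells stood above club cells in 3 genes of secreted proteins, *Scgb3a1* at 29684 against 304 CPM, *Bpifa1* at 13899 against 1340 and *Scgb3a2* at 23450 against 7216.

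**Figure D3:**
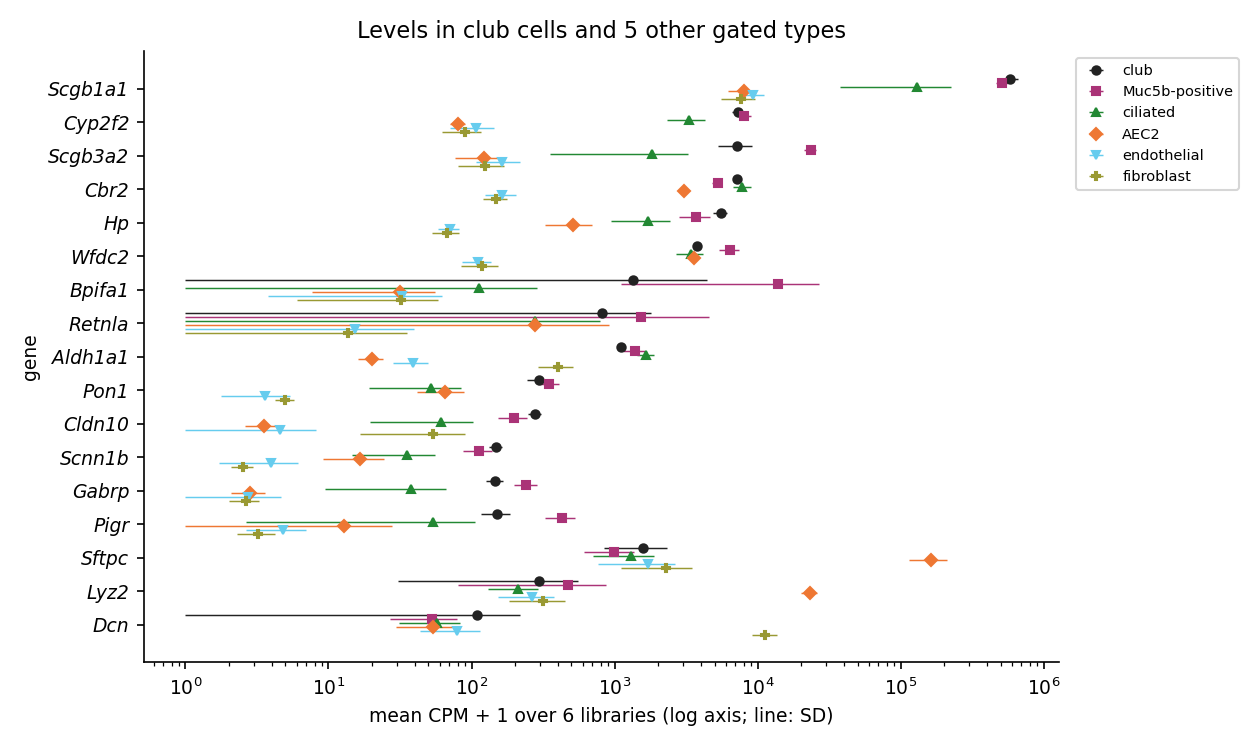
Mean level over 6 libraries (x axis, CPM + 1, log scale; lines are the SD and stop at the axis where it exceeds the mean) of 17 genes (y axis) in club cells and 5 other gated types. *Scgb1a1*, *Cyp2f2*, *Pon1* and *Gabrp* were high in club and *Muc5b*-positive cells, while *Sftpc* in club cells (1580 CPM) was close to its level in endothelial cells (1699 CPM).

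Several surfactant genes were measured in club cells, and they fell into those above their endothelial level and those near it. *Sftpb*, *Sftpd* and *Sftpa1* were at 1695 ± 272, 902 ± 132 and 2028 ± 521 CPM (SD, n = 6) in club cells, against 123, 62.4 and 251 in endothelial cells and 10578, 4358 and 22408 in AEC2s. With each cell thinned to 2000 UMIs, an *Sftpb* UMI was found in 85.6% of club cells and 21.6% of endothelial cells, an *Sftpd* UMI in 72.1% and 11.8%, and an *Sftpa1* UMI in 77.7% and 37.0%. The median depths before thinning were 16778 to 46040 and 3925 to 6545 UMIs. *Sftpc*, the surfactant gene that drives the Cre, was found in 85.8% of thinned club cells and 88.2% of endothelial cells. Its thinned share was thus no higher in club cells. Thinning took more UMIs, any free RNA among them, from the deeper club cells, so like shares cannot tell free RNA from low expression. The *Sftpc* level was not even among members. A single cell held 981 of the 1927 *Sftpc* UMIs of control 2, another held 1307 of the 5844 of control 3, and 7 cells held 50% of those of control 1. *Lyz2*, a lysozyme of AEC2s and macrophages, was at 293 ± 264 CPM in club cells and 263 in endothelial cells, with thinned shares of 32.9% and 39.3%. *Cxcl15*, lungkine, was at 1083 ± 180 CPM against 92.8 in endothelial cells.

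The list of xenobiotic metabolism enzymes, which leaves out the gate genes *Cyp2f2* and *Cbr2*, summed to 7134 to 8414 CPM. Of its 40 genes, 38 had a UMI in club cells, and *Cyp1a1* and *Sult1c1* had 0. The most abundant of the list were *Mgst1* (microsomal glutathione S-transferase) at 1558 ± 208 CPM, *Aldh1a1* (retinal dehydrogenase) at 1113 ± 67.4, *Ces1d* (a carboxylesterase) at 851 ± 90.5 and *Gstm1* at 767 ± 64.4 (SD, n = 6). In AEC2s these 4 genes were at 508, 19.1, 511 and 117 CPM, and in ciliated cells *Aldh1a1*, *Ces1d* and *Gstm1* were higher than in club cells, at 1657, 1352 and 2049 CPM. *Por*, the reductase that P450 enzymes depend on, was at 422 ± 61.0 CPM, and *Cyp4b1*, *Fmo2* and *Aox3* at 347, 219 and 237. *Fmo2* was higher in endothelial cells (409 CPM) and fibroblasts (1509 CPM) than in club cells.

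Among 42 airway transcription factor and Notch pathway genes, 41 were in the feature table and all 41 had a UMI. *Hes1*, a Notch target, led at 300 ± 33.1 CPM, ahead of *Cebpb* at 227 ± 44.1, *Nkx2-1* at 99.1 ± 17.1 and *Nfib* at 72.3 ± 8.30 (SD, n = 6). *Sox2*, the factor of the conducting airway, was at 43.1 ± 6.36 CPM in club cells and 0.525 in AEC2s. Of the ion and water transport genes, *Atp1b1*, a sodium pump subunit, was at 504 ± 40.1 CPM, the water channel gene *Aqp5* at 216 ± 35.5, the potassium channel gene *Kcnk2* at 152 ± 34.7 and *Scnn1b* at 147 ± 15.4 (SD, n = 6). *Scnn1a* and *Scnn1g*, the other subunits of the sodium channel, were at 90.4 and 32.8 CPM. *Atp12a* and *Best2* had 0 UMIs.

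Zinc handling genes were low. *Mt1*, a metallothionein, led the 28 listed genes at 81.7 ± 39.7 CPM in club cells, against 1685 in ciliated cells. The zinc importer genes *Slc39a7* and *Slc39a4* were at 23.5 ± 3.15 and 18.0 ± 3.07 CPM, and *Mt2* at 16.6 ± 7.62 (SD, n = 6). The genes of leukocytes were at or near 0. Of 14, *Ptprc* was at 0 by the gate, *Laptm5*, *Cd3e*, *S100a8*, *S100a9*, *Ear2* and *Ctss* had 0 UMIs, *Fcer1g* and *Cd79a* had means of 0.231 and 0.0866 CPM, and only *Lyz2* and *Cd74*, which AEC2s also express, passed 1 CPM. The endothelial genes *Pecam1* and *Cldn5* were at 2.03 and 3.85 CPM, against 1538 and 2613 in endothelial cells, while *Epas1* and *Kdr* were at 180 and 74.3 CPM. The ciliated gene *Tppp3* was at 27.2 CPM against 2791 in ciliated cells, and *Sec14l3*, which was on the ciliated list, was at 489 ± 41.9 CPM (SD, n = 6) in club cells.

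Several secreted proteins were held mostly by a few club cells. *Cyp2f2* was spread widely, with 50% of its UMIs in the 112 club cells that held most, and *Scgb3a2* less so, with 50% in 73. *Bpifa1*, an antimicrobial protein of larger airways, had 15416 UMIs in all 480 cells, of which 1 cell held 8803 (57.1%). *Scgb3a1* had 4143 UMIs, 50% of them in 3 cells, with 1583 in a single cell of Zip8AEC2 library 2. *Retnla*, a resistin-like secreted protein, had 15309 UMIs, 50% in 6 cells. In some libraries the CPM therefore followed single cells, as for *Scgb3a1* in Zip8AEC2 library 2, where that cell held 1583 of 1686 UMIs. In others it did not, as for *Scgb3a1* in control 3, where the top cell held 15 of 491 UMIs. *Retnla* was found in 80 of the 90 members of Zip8AEC2 library 1, where 1 cell held 48.6% of its UMIs. *Bpifa1* was at 7663 CPM in control 1 and at 189, 35.8 and 6.53 in controls 2 to 4, with 10.9 and 137 in the Zip8AEC2 libraries, and 2 cells held 14551 of the 14636 UMIs of control 1. *Itln1*, intelectin 1, had 625 UMIs, of which 606 were in Zip8AEC2 library 1 and 424 in 1 cell.

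**Figure D4:**
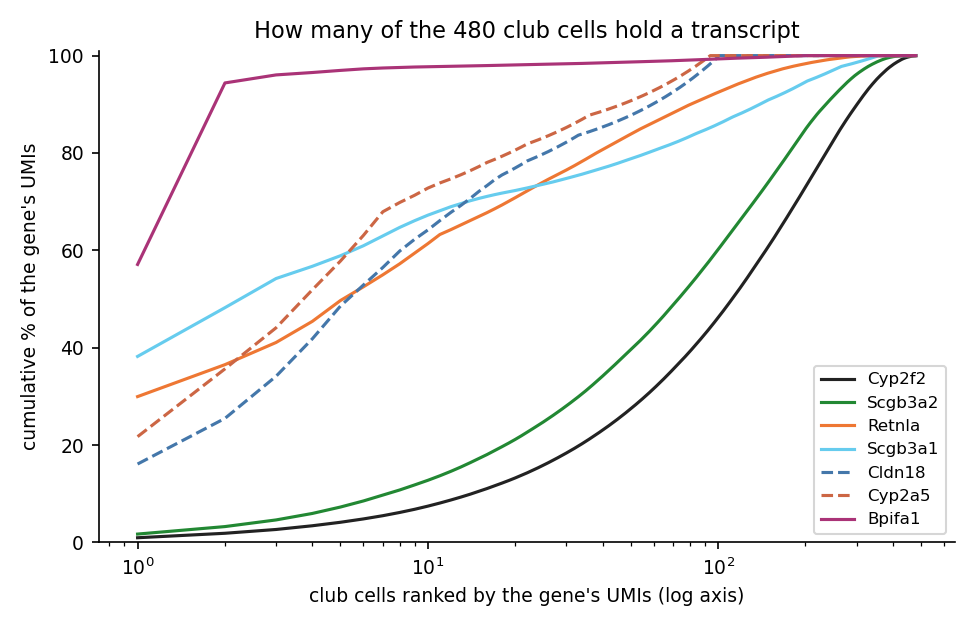
Cumulative share of a gene's UMIs (y axis, %) over the 480 club cells ranked by their UMIs of that gene (x axis, log scale), 1 line per gene. *Cyp2f2* reached 50% at 112 cells, *Scgb3a2* at 73, *Retnla* and *Cldn18* at 6, *Cyp2a5* at 4, *Scgb3a1* at 3 and *Bpifa1* at 1.

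Thinned to 2000 UMIs, *Bpifa1* was found in 6.25% of club cells and 9.91% of endothelial cells and *Scgb3a1* in 15.8% and 20.7%. Neither was thus found in a larger share of club cells than of endothelial cells, which were shallower before thinning. *Retnla* was found in 32.1% and 2.38%, *Chil1* in 21.9% and 3.57%, and *Aldh3a1* in 7.71% and 0.396%. *Upk3a*, a uroplakin reported in a club cell subset near neuroepithelial bodies, was held by 43 members before thinning, 7 of which held 50% of its 105 UMIs, and by 1.46% after it, with 0 of 1009 endothelial cells, which allows a share of up to 0.297%. *Chil4* and *Gp2*, goblet cell genes, had 0 UMIs in 480 cells, which allows a share of up to 0.625% of cells with a UMI. Cell cycle transcripts were rare. *Mki67* had 31 UMIs in 5 members and *Top2a* 38 in 10, with 25 and 29 of them in single cells.

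Between control libraries the most variable genes at 100 CPM or more, by the SD of log2 CPM, were *Bpifa1*, *Hbb-bs*, *Hba-a1*, *Rpl29*, *Apoe*, *Ier3*, *Nfkbia*, *Lyz2*, *Dcn* and *Retnla*. *Hbb-bs*, a globin of red cells, was at 1425 CPM in control 4 and 7.85 to 44.2 in the other controls, and 1 cell of control 4 held 1546 of its 4145 UMIs. The same gene was at 1662 CPM in the fibroblasts of control 4. *Rpl29*, a ribosomal protein gene, was at 28.3, 20.2, 186 and 219 CPM in controls 1 to 4 and at 390 and 34.8 in the Zip8AEC2 libraries. In fibroblasts it was at 57.1, 50.9, 310 and 314 CPM and at 653 and 50.8, so the same 3 libraries were high in both types. Among the controls, the early response genes *Ier3* and *Nfkbia* were highest in controls 2 and 3. *Ier3* was at 153, 624, 609 and 133 CPM in the controls and 475 and 268 in the Zip8AEC2 libraries. *Dcn* and *Apoe*, both abundant in fibroblasts, were highest in control 2, at 293 and 331 CPM, and a *Dcn* UMI was found in 25 of the 34 members under 10% *Scgb1a1* and in 291 of the other 446. The part of these members in the library levels was not tested.

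The genotype comparison asked whether club cells of Zip8AEC2 lungs differ from those of controls. *Slc39a8*, which encodes ZIP8 (chr3:135825279-135888572), was at 18.3, 19.7, 13.2 and 12.4 CPM in the controls and 14.7 and 13.5 in the Zip8AEC2 libraries, on 157 and 76 UMIs. Both groups overlapped, and all values were far under the 230 to 248 CPM of AEC2s. The log2 fold change in club cells was −0.11 (standard error 0.23, 95% interval −0.62 to 0.40). Its adjusted p was 0.990, from the edgeR quasi-likelihood fit with p-values adjusted by Benjamini and Hochberg over every gene tested. In AEC2s it was at 244, 234, 230 and 245 CPM in the controls and 248 and 237 in the Zip8AEC2 libraries. Counts of the 3′ end do not show a deletion elsewhere in the gene, so this level checks neither label. *Esr1*, whose sequence is part of CreER, was at 21.1 and 23.9 CPM in AEC2s of the Zip8AEC2 libraries and at most 0.165 in the controls. In club cells it was at 0.248 to 0.596 CPM in the controls and 0 and 1.04 in the Zip8AEC2 libraries, on 4 and 2 UMIs. Directions below are between the libraries as labelled.

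Of 8632 genes tested in club cells, 2 passed an adjusted p of 0.05 (0.0232%), 1 higher and 1 lower in the Zip8AEC2 libraries (0.0116% in each direction). *Cldn18*, the claudin of alveolar epithelium (chr9:99689461-99717267, minus strand), was at 17.8, 5.96, 7.45 and 12.4 CPM in the controls and 54.4 and 62.9 in the Zip8AEC2 libraries. Both Zip8AEC2 libraries lay above all controls, and the log2 fold change was 2.45, with a standard error of 0.27 and an adjusted p of 0.0101. *Cyp2a5*, a P450 of nicotine and coumarin metabolism (chr7:26835305-26843548, plus strand), was at 62.3, 32.2, 32.6 and 48.5 CPM in the controls and 3.53 and 8.84 in the Zip8AEC2 libraries. Both lay below all controls, and the log2 fold change was −2.95, with a standard error of 0.39 and an adjusted p of 0.0286. The exact two-sided permutation test gave p = 0.0667 for each gene, the smallest that 4 against 2 libraries allow. *Cyp2a5* has a near-identical paralog, *Cyp2a4*, which was at 0 CPM in 5 of 6 libraries, so its counts are uncertain where reads could be split.

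Both calls rested on a few cells. Of the 306 *Cldn18* UMIs of the Zip8AEC2 libraries, 244 were in 8 of 137 club cells with at least 10 each, and the other 129 cells held 62. In the controls 1 of 343 cells held at least 10, and the total was 110. The cell with most *Cldn18* (67 UMIs, Zip8AEC2 library 2) held 0.731% *Scgb1a1* and 94 UMIs of *Ager*, the gene of alveolar type 1 cells, and 3 others of the 8 held 33 to 229 *Ager* UMIs. Of the 445 *Cyp2a5* UMIs of the controls, 322 were in 7 of 343 cells, and in the Zip8AEC2 libraries 0 of 137 cells held at least 10. Of those 7 cells, 2 of control 1 held 6.33% and 6.22% *Scgb1a1*. With the single highest cell of each gene and library left out, the log2 fold changes were 2.37 (adjusted p = 0.297) and −2.61 (adjusted p = 0.656). Among members with at least 30% *Scgb1a1* they were 1.36 (adjusted p = 0.242) and −2.58 (adjusted p = 0.333), so neither call held. Over all alternatives run, the log2 differences ran from 0.17 to 3.35 for *Cldn18* and from −3.60 to −1.09 for *Cyp2a5*. Both calls were also lost without control 4 (adjusted p = 0.0572 and 0.195).

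The gates of other types bear on the same genes. *Cldn18* was at 950 to 1033 CPM in AEC2s and 152 to 347 in ciliated cells. *Cyp2a5* in *Muc5b*-positive cells was at 322, 495, 360 and 81.2 CPM in the controls and 21.8 and 189 in the Zip8AEC2 libraries. In ciliated cells *Cyp2a5* was at 236, 455, 197 and 341 CPM in the controls and 112 and 216 in the Zip8AEC2 libraries. The groups overlapped in both types. Summed over the 10 genes of the alveolar type 1 list, club cells held 498, 412, 427 and 397 CPM in the controls and 461 and 712 in the Zip8AEC2 libraries. *Ager* was its most abundant gene, at 167 to 241 CPM in the controls and 243 and 364 in the Zip8AEC2 libraries, and none of the 10 was at 0 in all libraries. The part of these cells in the *Cldn18* call was not tested beyond the values above.

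The promoter windows of both genes are shown to set them beside those of the gate genes, for chr9:99717268-99717517 (*Cldn18*, minus strand, the upstream of 2 RefSeq starts) and chr7:26835089-26835304 (*Cyp2a5*, plus strand), 5′ to 3′ with the same capitals. On the opposite strand TGTTTGC reads as GCAAACA.
Cldn18: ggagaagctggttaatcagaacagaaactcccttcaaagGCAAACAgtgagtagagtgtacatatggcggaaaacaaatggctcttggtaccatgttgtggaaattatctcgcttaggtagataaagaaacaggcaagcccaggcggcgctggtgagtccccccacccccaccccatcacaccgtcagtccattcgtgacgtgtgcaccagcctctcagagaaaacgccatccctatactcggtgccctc
Cyp2a5: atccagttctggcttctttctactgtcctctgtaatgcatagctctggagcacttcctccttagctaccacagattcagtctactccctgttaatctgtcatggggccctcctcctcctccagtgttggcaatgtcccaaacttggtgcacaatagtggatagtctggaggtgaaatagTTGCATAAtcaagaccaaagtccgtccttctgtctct
*Cldn18* held TGTTTGC on the opposite strand at 211 bases before the start, and *Cyp2a5* held TTGCNNAA at 71 bases before it. The window of the other *Cldn18* start, which lies within the gene and is not printed, held TGTTTGC at 8 and CAAGTG at 98 bases before that start.

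**Figure D5:**
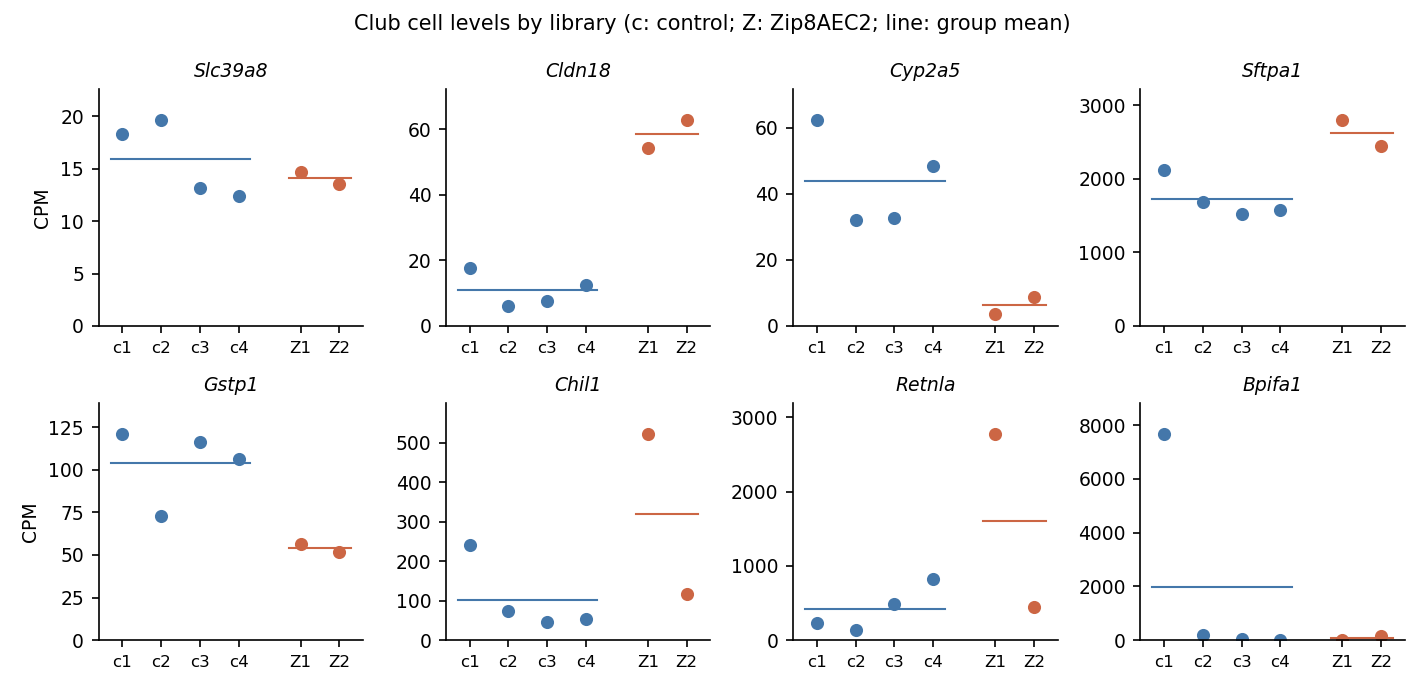
Club cell level (y axis, CPM, from 0) of 8 genes in controls 1 to 4 and Zip8AEC2 libraries 1 and 2 (x axis), with 1 point per library and a line at each group's mean. *Cldn18* and *Cyp2a5* passed the test, *Sftpa1* and *Gstp1* did not overlap between groups and missed it, and *Chil1*, *Retnla* and *Bpifa1* were each highest in 1 library.

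No other gene passed in this fit, while DESeq2 called 5. The count was 4 without control 1, 0 without control 4 and 8 without Zip8AEC2 library 2. Groups did not overlap for 621 genes with higher levels in the Zip8AEC2 libraries (7.19% of those tested) and 625 with lower ones (7.24%), and 488 genes (5.65%) had an unadjusted p under 0.05. Those next by p with higher values were *Retnlg*, *Gm684*, *Pddc1*, *Cd74*, *Clu*, *Cd14*, *Sftpa1*, *Gt(ROSA)26Sor* and *Isy1*, at adjusted p of 0.192 to 0.630. *Sftpa1*, which encodes surfactant protein A, was at 2118, 1691, 1525 and 1578 CPM in the controls and 2802 and 2454 in the Zip8AEC2 libraries, with a log2 difference of 0.61 (standard error 0.14). *Cd74*, the class II invariant chain, was at 63.3, 31.6, 43.0 and 62.9 CPM and at 95.5 and 112. A single cell held 94 of the 216 *Cd74* UMIs of Zip8AEC2 library 2 (43.5%), the cell with 0.731% *Scgb1a1* described above. Among members with at least 30% *Scgb1a1*, on the same scaling factors, *Cd74* was at 60.1, 29.4, 42.1 and 62.9 CPM and at 83.7 and 63.8. *Clu*, clusterin, was at 83.8, 59.6, 60.9 and 57.1 CPM and at 214 and 89.4. *Gt(ROSA)26Sor*, the transcript of the locus that carries tdTomato, was at 2.09, 0, 2.24 and 2.06 CPM in the controls and 8.23 and 7.28 in the Zip8AEC2 libraries, on 19 and 42 UMIs. In AEC2s it was at 6.06 to 8.95 and 19.6 and 19.8 CPM.

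With lower values came *Gstp1*, *Fam96b*, *Apoc1*, *Mat2a*, *Dcn*, *Spry2*, *Zcchc9*, *Rbp4* and *Stbd1*, at adjusted p of 0.630 to 0.634. *Gstp1*, a glutathione S-transferase with a near-identical copy, *Gstp2*, was at 121, 72.7, 116 and 106 CPM in the controls and 56.7 and 52.0 in the Zip8AEC2 libraries, a log2 difference of −0.94 (standard error 0.20). *Rbp4*, retinol binding protein 4, was at 91.1 to 111 CPM in the controls and 66.1 and 70.7 in the Zip8AEC2 libraries. *Mat2a*, which makes S-adenosylmethionine, was at 40.8 to 63.1 and at 32.3 and 26.0 CPM. *Dcn*, the fibroblast proteoglycan gene, was at 62.3, 293, 186 and 53.3 CPM in the controls and at most 31.2 in the Zip8AEC2 libraries.

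Of the other genes tied to the study and the mouse line, *Chil1* was at 240, 72.7, 45.5 and 52.9 CPM in the controls and 522 and 116 in the Zip8AEC2 libraries. The groups overlapped, with a log2 difference of 1.66 (standard error 0.61, adjusted p = 0.803). *Chil1* was at 0 to 16.1 CPM in endothelial cells of the controls and at 54.7 and 16.3 in those of the Zip8AEC2 libraries, and at 1269, 1149, 192 and 299 in AEC2s of the controls and 4442 and 1275 in those of the Zip8AEC2 libraries. The part of free RNA in the club cell values was not tested. *H2-K1*, a class I molecule, was at 154, 151, 169 and 174 CPM and at 178 and 163, a log2 difference of 0.08 (standard error 0.13, adjusted p = 0.988). *Sftpc* was at 2894, 1148, 1452 and 1933 CPM and at 1064 and 987, with an adjusted p of 0.783. As described, single members held large parts of these sums. *Bmp1* was at 3.57 to 6.28 CPM in the controls and 9.99 and 11.4 in the Zip8AEC2 libraries (adjusted p = 0.630). In AEC2s *Bmp1* was at 52.9 to 67.3 CPM in the controls and 186 and 214 in the Zip8AEC2 libraries.

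By gene list, 1 of 326 listed genes tested passed, *Cyp2a5* among the xenobiotic metabolism genes, beside 0.0232% of all genes tested. In that list 7 of 31 tested genes had a positive and 24 a negative log2 difference, with a median of −0.13 beside −0.0057 over all genes tested, and 0 and 6 did not overlap between groups in each direction, beside 7.19% and 7.24% of all genes tested. The 28 secreted airway proteins tested had 21 positive and 7 negative differences (median 0.23), and 5 and 1 did not overlap. All 4 class II genes tested, *Cd74*, *H2-Aa*, *H2-Ab1* and *H2-Eb1*, were higher with no overlap and missed the test, where 7.19% of all genes tested were higher with no overlap. Among members with at least 30% *Scgb1a1*, *H2-Aa* and *H2-Ab1* overlapped between groups. *H2-Aa* was at 10.5, 4.76, 2.98 and 6.88 CPM in the controls and 11.2 and 24.9 in the Zip8AEC2 libraries (adjusted p = 0.743). In AEC2s the mean level of *Cd74* was 3536 CPM. The 9 listed class II genes, of which *H2-Eb2* and *H2-Oa* were at 0, summed to 90.6, 41.7, 53.2 and 83.2 CPM in the controls and 125 and 170 in the Zip8AEC2 libraries. Among members with at least 30% *Scgb1a1* the sums overlapped, at 87.2, 37.0, 52.4 and 83.2 CPM and at 112 and 86.3. The glutathione and NRF2 list had 4 positive and 18 negative differences (median −0.095), the transcription factor list 23 and 10 (0.073, with 7 of 33 higher and 0 lower without overlap), the ion transport list 13 and 7 (0.11) and the zinc list 10 and 8 (0.051).

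The remaining lists had 0 genes past the threshold. The medians were 0.010 for 12 class I genes, −0.15 for 9 interferon response genes, 0.099 for 16 acute phase genes, 0.11 for 18 p53 targets, 0.00028 for 22 secretory pathway genes, 0.019 for 23 early response and heat shock genes, −0.0038 for 6 cell cycle genes and 0.033 for 14 genes of club cell variants. Among markers of other cells the medians were 0.69 for 13 ciliated genes, −0.15 for 13 AEC2 genes, 0.12 for 6 alveolar type 1 genes, 0.077 for 5 goblet genes, −2.71 for 7 basal genes, −2.08 for 2 neuroendocrine genes, −0.30 for 4 endothelial genes, −1.07 for 7 fibroblast genes, 0.18 for 2 leukocyte genes, −6.38 for 4 globin genes and −0.085 for 4 sex-linked genes. The summed basal genes were at 323 and 267 CPM in controls 2 and 3 and at most 144 in the other 4 libraries, with *Icam1* the most abundant and *Krt14* at 0. The summed fibroblast genes were at 522, 1078, 503 and 391 CPM and at 162 and 396, led by *Gsn*. The part of these cells in the genotype differences was not tested.

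The genotype effect in club cells was then compared with that in ciliated cells and in AEC2s, with the library as a block. Against ciliated cells 24 of 11365 genes differed (0.211%), 4 with a higher (0.0352%) and 20 with a lower effect in club cells (0.176%), and 6.99% had an unadjusted p under 0.05. The count was 3 without Zip8AEC2 library 1, 6 without control 4, 10 without control 1 and 52 without control 3. *Cldn18* differed by 3.14 on the log2 scale (standard error 0.24, adjusted p = 7.38e-06), and by 2.04 among members with at least 30% *Scgb1a1*. In ciliated cells it was at 192 to 347 CPM in the controls and 152 and 219 in the Zip8AEC2 libraries. The 4 higher ones also included *Rtkn2* (7.54) and *Igfbp2* (5.26). In club cells of Zip8AEC2 library 2, 1 cell held 14 of the 15 *Rtkn2* UMIs and 54 of the 55 *Igfbp2* UMIs. Of the 20 lower ones, *Scgb1a1* itself differed by −1.54 (standard error 0.30, adjusted p = 0.0467), with means of 78572 and 235992 CPM in ciliated cells of controls and Zip8AEC2 libraries. *Pon1* (−1.69), *Scgb1c1* (−1.75), *Aldh3a1* (−1.62) and *Chil1* (−1.53) also differed, with club cell means of 301 and 289 CPM for *Pon1* against 31.1 and 90.8 in ciliated cells. All 4 were higher in club than in ciliated cells of the controls, and their mean levels in ciliated cells were higher in the Zip8AEC2 libraries, as was the *Scgb1a1* share of ciliated cells given above. The part of club cell RNA in ciliated barcodes was not tested. The heat shock genes *Hspa1b* and *Hspa1a* (−3.13 and −3.04) also differed. Their ciliated means were 64.4 and 63.1 CPM for *Hspa1b*, and its club cell levels were 6.28, 96.5, 181 and 170 CPM in the controls and 13.2 and 12.5 in the Zip8AEC2 libraries.

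Against AEC2s 5 of 11225 genes differed (0.0445%), 1 with a higher (0.00891%) and 4 with a lower effect in club cells (0.0356%), and 5.71% had an unadjusted p under 0.05. The count was 1 without control 4, 3 without control 3, 12 without control 1 and 34 without Zip8AEC2 library 2. *Cldn18* differed by 2.41 (standard error 0.27, adjusted p = 6.5e-04), with AEC2 means of 983 and 1018 CPM, and by 1.31 (adjusted p = 0.0453) among members with at least 30% *Scgb1a1*. *Hba-a2*, *Ly6i*, *Phlda3* and *Apoc1* differed by −4.75, −2.81, −2.56 and −1.63. *Ly6i* in AEC2s was at 2.84 to 3.90 CPM in the controls and at 62.0 and 2.75 in Zip8AEC2 libraries 1 and 2, so only library 1 was high, and in club cells it was at 1.79 to 5.76 CPM in the controls and 8.82 and 1.04 in the Zip8AEC2 libraries. *Phlda3*, a p53 target, was at 4.45 to 7.32 CPM in AEC2s of the controls and 30.3 and 17.1 in those of the Zip8AEC2 libraries, and in club cells at 4.19 to 14.9 and at 6.47 and 6.76. *Hba-a2* was at 160 CPM in club cells of control 4. Its call was kept in 8 of 10 alternatives, that of *Ly6i* in 7 and those of *Phlda3* and *Apoc1* in 5 each, and the last 2 were lost among members with at least 30% *Scgb1a1* (adjusted p = 0.0650 for both). These comparisons share the club cell libraries.

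The share of kept barcodes that were club cells was 1.00%, 0.940%, 1.94% and 1.85% in the controls and 1.83% and 0.948% in the Zip8AEC2 libraries. Exact (Clopper-Pearson) 95% intervals, which cover counting error only, ran from 0.705% to 2.37% in the controls and from 0.697% to 2.24% in the others. The means were 1.43% ± 0.537 (SD, n = 4) and 1.39% ± 0.621 (SD, n = 2), and the groups overlapped (exact permutation test, two-sided, p = 0.600). Enrichment and the gate both set this share. With the wide gate of every kept barcode with at least 30% *Scgb1a1*, it was 7.89%, 7.63%, 12.6% and 5.34% in the controls and 14.3% and 10.7% in the Zip8AEC2 libraries, so the direction turned and the groups still overlapped. There were 0.608, 0.285, 0.435 and 0.616 club cells per ciliated cell in the controls and 0.237 and 0.144 in the Zip8AEC2 libraries, so both of the latter lay below all controls. The mean log2 ratio was lower by 1.33, with p = 0.0667 in the exact permutation test, the smallest it allows, so this test cannot reach 0.05 with 4 against 2 libraries. The unlogged ratio gave p = 0.133 in the same exact test. Among members with at least 30% *Scgb1a1* it was lower by 1.25 (exact permutation p = 0.133). With the wide gate the ratios were 4.79, 2.31, 2.83 and 1.78 in the controls and 1.87 and 1.63 in the Zip8AEC2 libraries, which overlapped. Ciliated cells numbered 102 to 219 in the controls and 379 and 326 in the Zip8AEC2 libraries. The ciliated gate asked for at least 3 UMIs each of *Tppp3*, *Ccdc153* and *Tmem212* and 0 of *Lamp3*, *Ptprc*, *Cdh5* and *Col1a2*. It set no limit on club cell genes. Of barcodes with the 3 required club cell genes, 337, 479, 565 and 377 in the controls and 797 and 776 in the Zip8AEC2 libraries held a *Foxj1* UMI. The club cell gate left these out, and the ciliated gate could take them. Their part in the ratio was not tested.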

How the data were processed

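Single-cell libraries of 4 control and 2 Zip8AEC2 samples were analysed. The deposited values are raw UMI counts per gene and barcode, which the authors made with Cell Ranger 3.1.0 on mm10, before their Seurat steps. UMIs of members were summed per library (1446983 to 3933483, or 1435815 to 3909308 after the gene filter). The sums were fitted with edgeR 4.0.16 in R 4.3.3 (TMM, filterByExpr, quasi-likelihood, all 6 libraries). P-values were adjusted by Benjamini and Hochberg over every gene of a fit, with a threshold of 0.05. The test of 2 effects against each other used an interaction term with the library as block. Shares were compared by exact permutation over 15 splits. Python 3.11.15 applied the gates. No doublet caller was run. The gate asks for 0 UMIs of 5 other-lineage genes, and an alternative left out the tenth of members with most UMIs. Thinning drew 2000 UMIs per cell with a fixed seed.

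The members and the 26 gene lists were chosen with earlier results of these data known. *Cebpd* and *Pclaf* were not analysed here. Named genes were the 4 markers, genes of the study and line, the 10 genes per direction with the smallest adjusted p whose libraries do not overlap, the 20 most abundant, the 4 most abundant per list with any past the threshold, the 10 with the highest club cell ratio, and the 10 most variable among controls, the last 2 at 100 CPM or more. *Itln1*, *Upk3a*, *Hspa1b*, *Scgb1c1* and others that the rule does not give were picked once their values had been seen. Alternatives were DESeq2 1.42.0, other scaling, filters, gates, depth, blocks and left-out libraries. On simulated counts of 8369 genes for the club cell comparison, 59 of 107 genes with a 2-fold and 90 of 93 with a 4-fold change were recovered, with 8 false calls. For the comparison with ciliated cells (8614 genes) 20 and 80 were recovered, with 9 false calls.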

Additional observations from a re-analysis of the deposited data

Results flagged for a closer look

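Among the 4 controls, 1 library stood far from the other 3 for 12 of the 124 named genes with a mean of at least 10 CPM, and chance alone marks about 1 in 20 such groups. That rate does not carry over to these genes, since 10 of the named genes were chosen for varying most among the same controls, and *Bpifa1*, *Hbb-bs*, *Hba-a1* and *Lyz2* are among them. In control 1 these were *Chil1* at 240 CPM, *Clu* at 83.8, *Nkx2-1* at 125, *Lyz2* at 826, *Ltf* at 278 and *Bpifa1* at 7663 CPM. For *Bpifa1*, *Ltf* and *Lyz2* a single cell held 60.1%, 56.9% and 38.9% of that library's UMIs. In control 2 it was *Mt1* at 157 CPM and in control 3 *Stmn1* at 69.3. In control 4 the globin genes *Hbb-bs*, *Hba-a1*, *Hbb-bt* and *Hba-a2* were at 1425, 560, 216 and 160 CPM.

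The genotype effect differed between club cells and another cell type in a test of the difference for 24 genes against ciliated cells and 5 against AEC2s, and 8 of these results were for genes that the naming rule gives. Against ciliated cells those were *Cldn18* (3.14 on the log2 scale), *Pon1* (−1.69), *Chil1* (−1.53), *Epas1* (−1.38) and *Scgb1a1* (−1.54). Against AEC2s they were *Cldn18* (2.41), *Hba-a2* (−4.75) and *Apoc1* (−1.63). Each comparison had 10 alternatives, and none left out the single highest cell, thinned the members or used the wide gate. Leaving out that cell was run for the genotype comparison within club cells alone, where *Cldn18* lost its call. *Cldn18* kept its call in all 10 alternatives of both comparisons, but among members with at least 30% *Scgb1a1* it differed by 2.04 against ciliated cells and 1.31 against AEC2s (adjusted p = 0.0453), while *Pon1*, *Chil1*, *Epas1* and *Scgb1a1* lost theirs in 2 or 3 of 10, *Hba-a2* in 2 and *Apoc1* in 5.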

How the results depend on the processing

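The count of genes past the threshold between genotypes (2) was 0 to 8 when 1 library was left out, with 0 without control 4 and 8 without Zip8AEC2 library 2. It was 5 with DESeq2, 144 with no count filter (52 higher and 92 lower of 15614), and 1 with at least 2 UMIs of each marker, with the gate applied after thinning, or without the tenth of members with most UMIs. It was 0 with members thinned to 2000 UMIs, where 1071 genes were tested. It was also 0 in 3 alternatives chosen after seeing the data, namely members with at least 30% *Scgb1a1*, a wide gate (every kept barcode with at least 30% *Scgb1a1*) and leaving out the top cell of each gene and library. Replicate numbers 1 and 2 are shared by the groups but did not pair the libraries (correlations of deviations −0.074 and −0.051), and with the replicate block the count was 0. The count among listed genes (1) was 0 to 3 with 1 library left out, and 0 with at least 2 UMIs of each marker and with thinned members. Against ciliated cells the count (24) was 3 to 52 with 1 library left out, 188 with no count filter, 37 with at least 5 UMIs of each marker and 62 with at least 30% *Scgb1a1*. Against AEC2s (5) it was 1 to 34, 66 with no filter and 13 with at least 30% *Scgb1a1*. Without 1 Zip8AEC2 library that group held 1 library, so the spread in such a fit came from the controls alone. Counts and calls from those fits, which the values here and in the results include, decide nothing. The cause of these changes was not tested.

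The difference in club cell share (−0.0464 percentage points) was −0.486 to 0.393 with 1 library left out (0.122 without control 3 and 0.0935 without control 4), 0.0065 with mitochondrial UMIs under 10% and 4.16 with the wide gate. The log2 club to ciliated ratio stayed negative, from −2.61 to −0.65. *Cldn18* kept its call in 13 of 20 alternatives and *Cyp2a5* in 11 of 19. Their log2 differences ran from 0.17 to 3.35 and from −3.60 to −1.09. For the 29 of 147 named genes run under these alternatives (the markers, the tested genes of the study and line, and the 10 genes per direction with the smallest p), the log2 difference changed sign in 19 cases, 17 of them in 6 genes whose groups overlapped, and 1 each for *Cd14* and *Isy1*, whose groups did not overlap. *Cyp2f2* ran from −0.17 to 0.15 with 1 library left out (0.029 without control 1 and 0.026 without control 3) and was 0.0047 with the replicate block, 0.024 without the tenth of members with most UMIs and 0.11 with thinned members, where *Cbr2* was 0.023. *Hp* ran from −0.10 to 0.23 with 1 library left out and was −0.022 by total UMIs, −0.00099 with at least 30% *Scgb1a1* and −0.31 with the wide gate. *Slc39a8* ran from −0.20 to 0.0064 with 1 library left out and was 0.23 with at least 2 UMIs of each marker and 0.068 with the gate after thinning. *H2-K1* was −0.013 by total UMIs. With the wide gate *H2-K1*, *Scgb1a1*, *Cd14* and *Isy1* were −0.18, −0.16, −0.092 and −0.022. Leaving out barcodes held by another library left under 20 club cells in both Zip8AEC2 libraries, so that genotype fit was not run.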

Other observations

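Single members carried transcripts of other cell types. Of the 80 UMIs of *Calca*, a neuropeptide gene of neuroendocrine cells, 56 were in 1 cell. Of the 62 *Igfbp2* UMIs, 54 were in 1 cell of Zip8AEC2 library 2, which also held 229 *Ager* and 14 *Rtkn2* UMIs beside 34.8% *Scgb1a1*. *Scgb3a1* reached 93183 and *Bpifa1* 277435 CPM in the club cell with the highest level of each.

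*Retnla* in club cells of Zip8AEC2 library 1 was at 2774 CPM, against 138 to 823 in the controls and 446 in library 2, and 1 cell held 4586 of the 9438 UMIs of library 1. Other gated types of that library were also high in it, with 7667 CPM in *Muc5b*-positive cells (104 to 705 in the controls), 1578 in AEC2s (8.23 to 40.6) and 63.6 in endothelial cells (2.68 to 6.86).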
